A study of Homo sapiens with 4 samples.

Results

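Glycolysis and hypoxia-responsive genes were examined in MCF10A, a non-tumorigenic human breast epithelial line, on Affymetrix arrays of total RNA. The list holds 34 genes, of which 20 act in glucose uptake, glycolysis and the handling of its product pyruvate, and 14 are known targets of low-oxygen signalling. A gene was measured where a probe set was annotated to its symbol and no other, which gave 31 genes. SLC16A3 and CA9 were not analysed here, and BNIP3 shares its probe set with a pseudogene. The list was set by gene name, with earlier results of these data known, and lies within 20940 genes measured in the same way.

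The cells carried 1 of 4 stable transfections and differed in nothing else that the labels give. They carried Her2 (ERBB2, a receptor tyrosine kinase), PIK3CA-H1047R (an activating variant of the kinase subunit of PI3K, an enzyme that growth factor receptors switch on, named mutant PIK3CA below), Her2 with that variant, or LacZ, a bacterial enzyme gene that served as the control. Cells grew untreated in SFIHE medium, and the labels name no group kept at low oxygen and do not say whether a transfected line was 1 clone. Each group was measured on 1 array (n = 1), so no difference has a replicate check, no SD or p-value is given, and the number of arrays limits the precision.

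Glycolysis splits glucose into pyruvate. Glucose enters through SLC2A transporters and is phosphorylated by hexokinases, and pyruvate either enters mitochondria or is reduced to lactate. Hypoxia-inducible factors are transcription factors made of an oxygen-regulated subunit (HIF1A or EPAS1) and ARNT. With oxygen present, prolyl hydroxylases of the EGLN family mark the regulated subunit for removal through VHL. When oxygen is low, the factors raise transcription of many genes of this list. Signalling through PI3K is known to promote glucose uptake and glycolysis in many cell types.

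Values are deposited log2 values, so that a difference of 1 is 2-fold, and the array medians over 53617 probe sets were between 1.13 and 1.17. A gene was counted where its mean over the 4 arrays was at least 3, which held for 7284 genes and for 21 of the 31 measured members. Of the counted genes 405 (5.56%) reached that mean only through their highest array, HK2 alone among the members (2.98 without the array labelled mutant PIK3CA). The upper quartile of all probe sets, between 2.48 and 2.62, serves below as a mark of background, and a difference from a reading under it is not a measured fold. Some abundant transcripts read low on this scale (GAPDH between 3.47 and 3.67), and no gene's level was set against another's. The probe set reading ERBB2, annotated also to MIR4728, had 4.29 with the Her2 label, 8.48 with the mutant PIK3CA label and 7.39 with both labels, against 5.96 with LacZ. It was thus lower, not higher, on the array labelled Her2, and every direction below is that of an array so labelled. Whether the arrays labelled Her2 and mutant PIK3CA were exchanged was not tested. An exchange would give each the values printed for the other, those of SLC2A1 and HK2 included, and would exchange the comparisons with each single label. The basal epithelial keratin KRT5 read between 7.08 and 7.52 on all arrays, and the epithelial cadherin CDH1 read 8.94, 9.13 and 5.07 on the arrays labelled Her2, mutant PIK3CA and both, against 9.34 on that labelled LacZ.

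Most members differed little between the arrays. The gap between the lowest and the highest array was under 1 log2 unit for 16 of the 21 counted members, with a median gap of 0.67, against 0.77 over all counted genes. It reached 1 for 5 of the 21 members (23.8%), against 33.0% of all counted genes. The members with larger gaps were single genes spread over several steps of the pathway. The array labelled mutant PIK3CA stood apart for SLC2A1 and HK2, and the array labelled with both for ALDOC. That array also had the highest P4HA1 and the lowest NDRG1 and VEGFA.

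**Figure D1:**
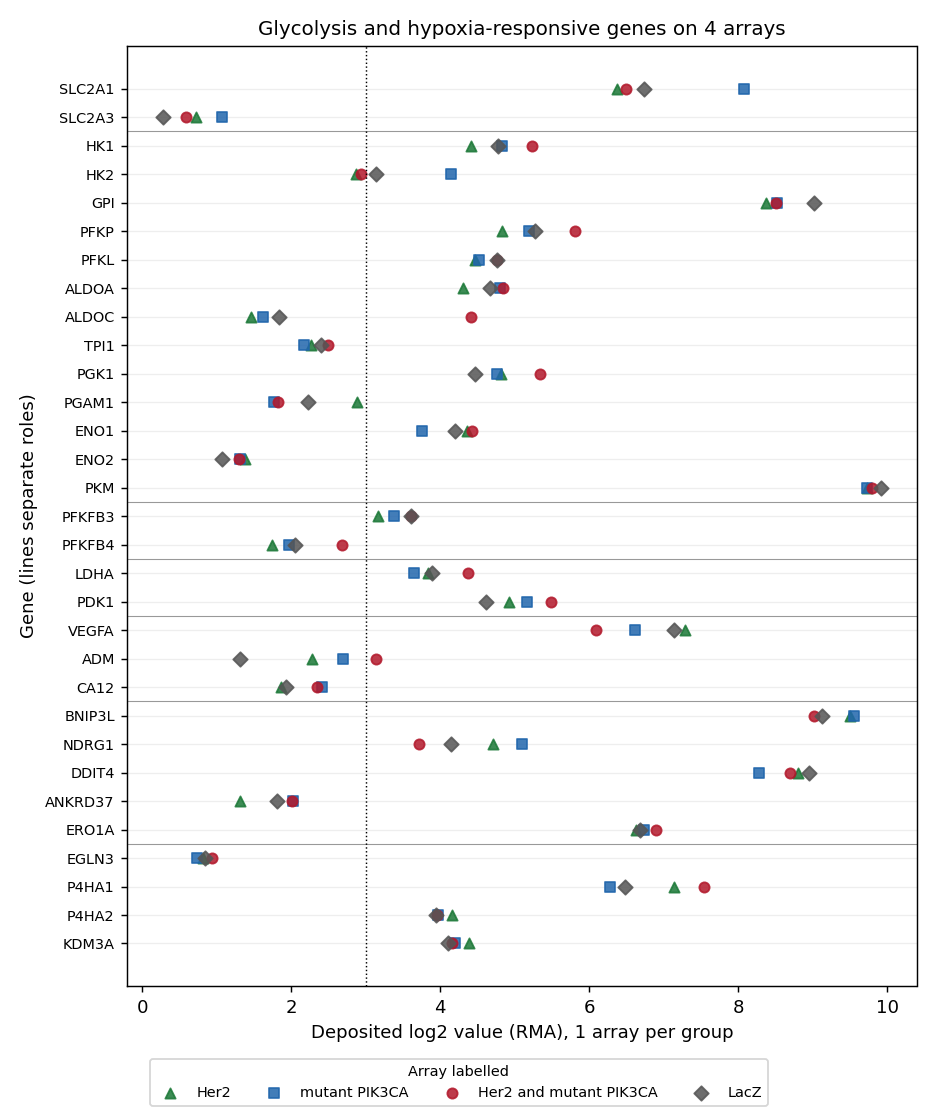
Deposited log2 value (x axis) of the 31 measured members (rows, ordered by role, with lines between roles) on the arrays labelled Her2 (triangles), mutant PIK3CA (squares), Her2 and mutant PIK3CA (circles) and LacZ (diamonds). The dotted line marks the mean of 3 that a counted gene had to reach; SLC2A1 stands out on the array labelled mutant PIK3CA at 8.07, and ALDOC on the array labelled with both at 4.41.

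The transporter SLC2A1 and the hexokinase HK2 were highest on the array labelled mutant PIK3CA. SLC2A1, the widely expressed glucose transporter GLUT1, read 6.38 on the array labelled Her2, 8.07 on that labelled mutant PIK3CA and 6.50 on that labelled with both, against 6.74 on the LacZ array. The array labelled mutant PIK3CA was thus 2.52-fold above LacZ, and the other 3 lay within 0.4 of each other. HK2, the inducible hexokinase, read 2.87 with the Her2 label, 4.15 with mutant PIK3CA and 2.94 with both, against 3.14 with LacZ. Its order over the arrays was that of SLC2A1, with a difference of 1.01 (2.02-fold) between mutant PIK3CA and LacZ, just past the threshold, and it is counted only through that array. The widely expressed hexokinase HK1 did not share it, with 4.42, 4.83 and 5.23 on the arrays labelled Her2, mutant PIK3CA and both, against 4.77 on that labelled LacZ. The transporter SLC2A3 lay at background on every array, between 0.28 and 1.07.

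Of the 4 counted enzymes of the middle of the pathway, none differed 2-fold between any arrays. GPI, which converts glucose 6-phosphate to fructose 6-phosphate, read 8.38, 8.52 and 8.50 on the arrays labelled Her2, mutant PIK3CA and both, against 9.02 on the LacZ array. It was lower by a similar amount on all 3 (-0.64, -0.50 and -0.52), none of them 2-fold. The phosphofructokinase subunit PFKP, of the step that commits sugar to glycolysis, read 4.83 on the array labelled Her2, 5.19 on that labelled mutant PIK3CA and 5.81 on that labelled with both, against 5.27 on that labelled LacZ. Its liver-type partner PFKL stayed between 4.47 and 4.76. ALDOA, the aldolase of most tissues, ranged between 4.30 and 4.85, lowest with the Her2 label.

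A different pattern was seen for ALDOC, the aldolase isoform best known from brain. It read 1.46 on the array labelled Her2, 1.62 on that labelled mutant PIK3CA and 4.41 on that labelled with both, against 1.83 on the LacZ array. ALDOC was thus above the upper quartile of all probe sets on the array labelled with both alone. The difference from the LacZ reading was 2.58, and from the LacZ array's upper quartile (2.50) it was 1.91, at least 3.75-fold. ALDOC is not among the counted genes, because its mean was 2.33.

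In the later steps of glycolysis, PGK1 (phosphoglycerate kinase, the first ATP-forming step) read 4.82, 4.76 and 5.34 on the arrays labelled Her2, mutant PIK3CA and both, against 4.46 on that labelled LacZ. It was highest on the array labelled with both, by 0.88, short of 2-fold. ENO1 (enolase) read 4.35, 3.76 and 4.43 with Her2, mutant PIK3CA and both, against 4.20 with LacZ. PKM, the pyruvate kinase of proliferating and most adult tissues, was the steadiest counted member, with values between 9.72 and 9.91. PGAM1 (phosphoglycerate mutase) read 2.88 on the array labelled Her2, 1.76 on that labelled mutant PIK3CA and 1.82 on that labelled with both, against 2.23 with LacZ, all near background. TPI1 (triosephosphate isomerase) lay between 2.17 and 2.49 and the neuronal enolase ENO2 between 1.08 and 1.37, which leaves little to compare.

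The kinase-phosphatases PFKFB3 and PFKFB4 set the level of the activator of phosphofructokinase. PFKFB3 read 3.17 with Her2, 3.38 with mutant PIK3CA and 3.61 with both, against 3.60 with LacZ. PFKFB4 read 1.74, 1.96 and 2.68 on the arrays labelled Her2, mutant PIK3CA and both, against 2.04 on the LacZ array. For both genes the array labelled Her2 was lowest, and the arrays lay within less than 1 log2 unit. The array labelled with both was highest for PFKFB4, and for PFKFB3 it was level with LacZ (a difference of 0.004). For PFKFB4 only the reading with both labels lay above its array's upper quartile (2.62). LDHA, which reduces pyruvate to lactate, read 3.83, 3.64 and 4.38 on the arrays labelled Her2, mutant PIK3CA and both, against 3.89 on that labelled LacZ. PDK1, which blocks entry of pyruvate into mitochondria by inhibiting pyruvate dehydrogenase, read 4.92, 5.16 and 5.48 with Her2, mutant PIK3CA and both, against 4.61 with LacZ. PDK1 was above LacZ on all 3 other arrays, by 0.31, 0.55 and 0.87, all short of 2-fold.

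Among secreted products of the hypoxia response, ADM read above LacZ on all 3 other arrays, and VEGFA below it on those labelled mutant PIK3CA and both. ADM (adrenomedullin, a vasodilator peptide) read 2.28 on the array labelled Her2, 2.70 on that labelled mutant PIK3CA and 3.14 on that labelled with both, against 1.32 on the LacZ array. The differences were 0.96, 1.38 and 1.82, but the LacZ reading lay near that array's median of 1.17. Against the LacZ array's upper quartile they came to 0.19 with mutant PIK3CA and 0.63 with both, short of 2-fold, and the mean of 2.36 leaves ADM out of the counted genes. VEGFA, the main growth factor for blood vessels, read 7.28 with Her2, 6.61 with mutant PIK3CA and 6.09 with both, against 7.13 with LacZ. It was lowest on the array labelled with both, with differences of -1.05 from LacZ and -1.20 from the array labelled Her2. CA12, a cell-surface carbonic anhydrase that controls pH, stayed between 1.86 and 2.41.

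Among stress and mitophagy genes, NDRG1, a stress-responsive gene strongly induced by low oxygen in many cell lines, read 4.71, 5.09 and 3.71 on the arrays labelled Her2, mutant PIK3CA and both, against 4.14 on the LacZ array. Each single label was above LacZ (0.56 and 0.95), whereas the array labelled with both was below it (-0.43). BNIP3L, a receptor for the removal of mitochondria, read 9.50 with Her2, 9.56 with mutant PIK3CA and 9.02 with both, against 9.13 with LacZ. It followed the order of NDRG1 over the arrays at a smaller size. DDIT4, an inhibitor of mTOR complex activity that is also a target of other stress pathways, read 8.80, 8.29 and 8.70 on the arrays labelled Her2, mutant PIK3CA and both, against 8.95 on that labelled LacZ. ERO1A, an oxidase of protein folding in the endoplasmic reticulum, differed by at most 0.28 between any arrays. ANKRD37 lay near background, between 1.31 and 2.02.

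Oxygen-dependent dioxygenases form the last group, and in it P4HA1 varied most. P4HA1, the catalytic subunit of the collagen prolyl hydroxylase, read 7.14 on the array labelled Her2, 6.27 on that labelled mutant PIK3CA and 7.54 on that labelled with both, against 6.48 on the LacZ array. It was thus higher on both arrays whose label includes Her2. Its paralogue P4HA2 stayed between 3.95 and 4.16, and the histone demethylase KDM3A between 4.10 and 4.38. EGLN3, a prolyl hydroxylase that is itself a sensitive hypoxia target, was at background on every array (0.74 to 0.93).

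The promoters of 5 members whose readings differed by at least 1 log2 unit between arrays are shown because they differ in the core motif that hypoxia-inducible factors bind, ACGTG or GCGTG. Sequences are the 250 bases before a gene's start, 5′ to 3′ on the gene's strand, from RefSeq (GRCh38.p14), and capitals mark the core motif on either strand. Where it lies within CACGTG, the same bases are also an E-box, the motif of MYC and related factors. Coordinates are chr1:42958869-42959118 (minus strand) for SLC2A1, chr2:74833877-74834126 and chr2:74834920-74835169 (plus strand) for starts A and B of HK2, chr17:28576896-28577145 (minus strand) for ALDOC, chr11:10304823-10305072 (plus strand) for ADM and chr10:73096867-73097116 (minus strand) for P4HA1.
SLC2A1: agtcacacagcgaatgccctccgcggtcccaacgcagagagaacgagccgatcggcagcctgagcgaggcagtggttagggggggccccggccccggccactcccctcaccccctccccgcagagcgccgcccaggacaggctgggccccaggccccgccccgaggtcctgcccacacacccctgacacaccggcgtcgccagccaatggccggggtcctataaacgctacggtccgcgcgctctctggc
HK2 start A: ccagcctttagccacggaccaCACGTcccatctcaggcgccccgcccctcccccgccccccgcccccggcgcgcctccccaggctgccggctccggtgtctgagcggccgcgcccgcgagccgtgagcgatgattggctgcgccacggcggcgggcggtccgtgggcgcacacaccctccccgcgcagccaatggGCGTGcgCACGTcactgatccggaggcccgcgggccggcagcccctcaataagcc
HK2 start B: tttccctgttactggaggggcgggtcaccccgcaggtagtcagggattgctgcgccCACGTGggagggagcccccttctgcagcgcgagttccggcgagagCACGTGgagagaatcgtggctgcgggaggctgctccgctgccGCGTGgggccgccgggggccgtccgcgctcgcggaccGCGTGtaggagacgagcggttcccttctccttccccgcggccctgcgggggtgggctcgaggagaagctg
ALDOC: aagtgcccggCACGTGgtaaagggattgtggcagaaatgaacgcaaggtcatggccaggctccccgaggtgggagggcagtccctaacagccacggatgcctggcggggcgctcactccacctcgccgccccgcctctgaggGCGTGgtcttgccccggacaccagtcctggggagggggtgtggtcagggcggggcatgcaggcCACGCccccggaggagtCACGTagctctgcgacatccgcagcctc
ADM: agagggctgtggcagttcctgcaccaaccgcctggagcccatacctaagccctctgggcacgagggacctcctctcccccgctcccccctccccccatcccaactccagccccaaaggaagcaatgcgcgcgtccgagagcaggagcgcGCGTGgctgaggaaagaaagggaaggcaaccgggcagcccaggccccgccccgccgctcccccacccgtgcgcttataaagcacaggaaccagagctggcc
P4HA1: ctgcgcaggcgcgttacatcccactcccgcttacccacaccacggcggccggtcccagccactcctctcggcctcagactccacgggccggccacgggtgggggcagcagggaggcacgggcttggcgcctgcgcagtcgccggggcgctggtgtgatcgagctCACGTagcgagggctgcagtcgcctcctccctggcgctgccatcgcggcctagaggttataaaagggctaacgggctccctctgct
The SLC2A1 window holds no core motif, although SLC2A1 is a known target; no match says only that these letters are not in this window. The ALDOC window holds 1 E-box and 3 further core motifs, and ADM and P4HA1 hold 1 core motif each. Promoters were matched for 27 of the 31 measured members, and 22 of them (81.5%) held ACGTG or GCGTG in at least 1 window. Over the counted genes the share was 66.9% of 6050, and over all 27305 genes with a RefSeq window it was 47.4%. Members had 44 windows, and the share per window was 65.9%, against 57.0% per window of the counted genes. The median share of G and C was 68.4% for the members and 64.9% for the counted genes, and its part in the motif shares was not tested. SLC2A1 and HK2, which shared their order over the arrays, differed here, with 0 core motifs for SLC2A1 and several for HK2.

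On the array labelled Her2, 0 of 21 counted members differed 2-fold from LacZ, where 5.45% of all counted genes did (2.99% higher and 2.46% lower). The median difference was -0.06 over the members and 0.01 over all counted genes. Of the glycolysis members 10 of 13 counted genes were below LacZ, with a median of -0.29, and of the hypoxia members 6 of 8 were above it, with a median of 0.24. Over all counted genes 48.9% were below and 51.0% above, and no test was made of either lean. The extremes were GPI (-0.64) and P4HA1 (0.65).

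On the array labelled mutant PIK3CA, SLC2A1 and HK2 were at least 2-fold higher than LacZ and no counted member was 2-fold lower. These 2 of 21 members compare with 8.99% of all counted genes (5.26% higher and 3.73% lower), a share near the background, and HK2 reached the filter only through the array on which it is called. The median was 0.03 over the members and 0.02 over all counted genes. NDRG1 lay just inside the threshold at 0.95, and DDIT4 was lowest at -0.66. Among the 31 measured members the reading of ADM also differed by over 1 (1.38), which gave 3, against 4.54% of all measured genes.

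On the array labelled with both, P4HA1 (1.06) was 2-fold higher and VEGFA (-1.05) 2-fold lower than LacZ, with PGK1 (0.88) and PDK1 (0.87) next. These 2 of 21 counted members compare with 21.4% of all counted genes (11.6% higher and 9.75% lower). The median was 0.02 over the members and 0.02 over all counted genes. Of the 13 counted glycolysis members 9 were above LacZ, with a median of 0.18, where 51.1% of all counted genes were. Among the 31 measured members the readings of ALDOC and ADM were also higher by over 1, which gave 4, against 10.9% of all measured genes.

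**Figure D2:**
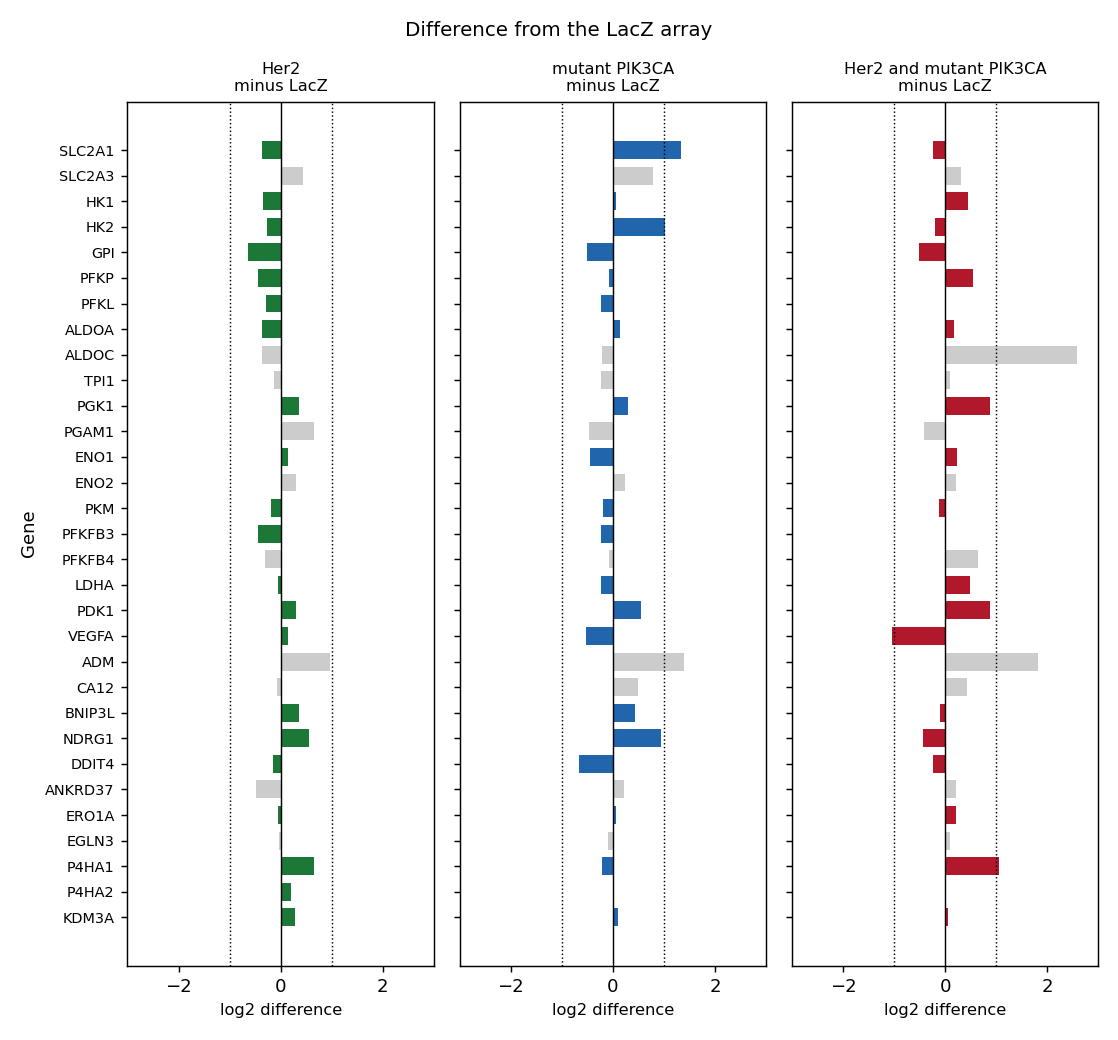
Log2 difference from the LacZ array (x axis) of the 31 measured members (rows) for the arrays labelled Her2, mutant PIK3CA, and Her2 and mutant PIK3CA (panels). Grey bars are genes with a mean below 3, dotted lines mark 2-fold, and the longest bars are ALDOC (2.58) and ADM (1.82) on the array labelled with both, both from LacZ readings under that array's upper quartile.

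Set against the array labelled mutant PIK3CA, the array labelled with both was 2-fold lower for SLC2A1 (-1.57), NDRG1 (-1.38) and HK2 (-1.21) and 2-fold higher for P4HA1 (1.27). These 4 of 21 counted members compare with 15.7% of all counted genes (8.43% higher and 7.3% lower), and the medians were 0.16 over the members and 0.01 over all counted genes. HK2 reached the filter only through the array labelled mutant PIK3CA, against which it is called lower here. Thus the high values of SLC2A1 and HK2 on the array labelled mutant PIK3CA were not found on the array that carries the same label together with Her2. ALDOC, below the filter, differed by 2.79, or by 1.93 from the upper quartile of the array labelled mutant PIK3CA.

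Set against the array labelled Her2, the array labelled with both was 2-fold lower for VEGFA (-1.20), and no counted member was 2-fold higher. That 1 of 21 members compares with 12.2% of all counted genes (7.0% higher and 5.19% lower). All 13 counted glycolysis members lay above 0, the highest being PFKP (0.98) and HK1 (0.81), with a median of 0.44. Over all counted genes the median was -0.002 with 49.8% above 0, and no test was made of this lean. Below the filter, ALDOC differed by 2.95 (1.85 from the upper quartile of the array labelled Her2) and PGAM1 by -1.07, the lower PGAM1 reading being under the upper quartile. A second probe set, annotated to PGAM1 and to its near-identical relative PGAM4, went the other way (2.94 on the array labelled with both, against 1.55 on that labelled Her2), so the direction for PGAM1 is uncertain.

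Each label can be read in 2 pairs of arrays that share none, without and with the other introduced gene. For the Her2 label, 0 of 21 counted members were 2-fold higher or 2-fold lower in each of the 2 pairs, against 1.96% of all counted genes, and for the mutant PIK3CA label 0 of 21, against 2.54%. Without the filter it was 0 of 31 for each label, and the share over all measured genes was not computed. P4HA1 was nearest for Her2, with 0.65 in the first pair and 1.27 in the second. By readings alone ADM, below the filter, was nearest for mutant PIK3CA, with 1.38 and 0.86. Its lower readings (1.32 with LacZ and 2.28 with Her2) were under their arrays' upper quartiles, so neither is a measured fold. From the LacZ array's quartile the first came to 0.19. SLC2A1 was higher with the mutant PIK3CA label against LacZ (1.33) and close to even with both against Her2 (0.12), and HK2 likewise (1.01 and 0.07).

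**Figure D3:**
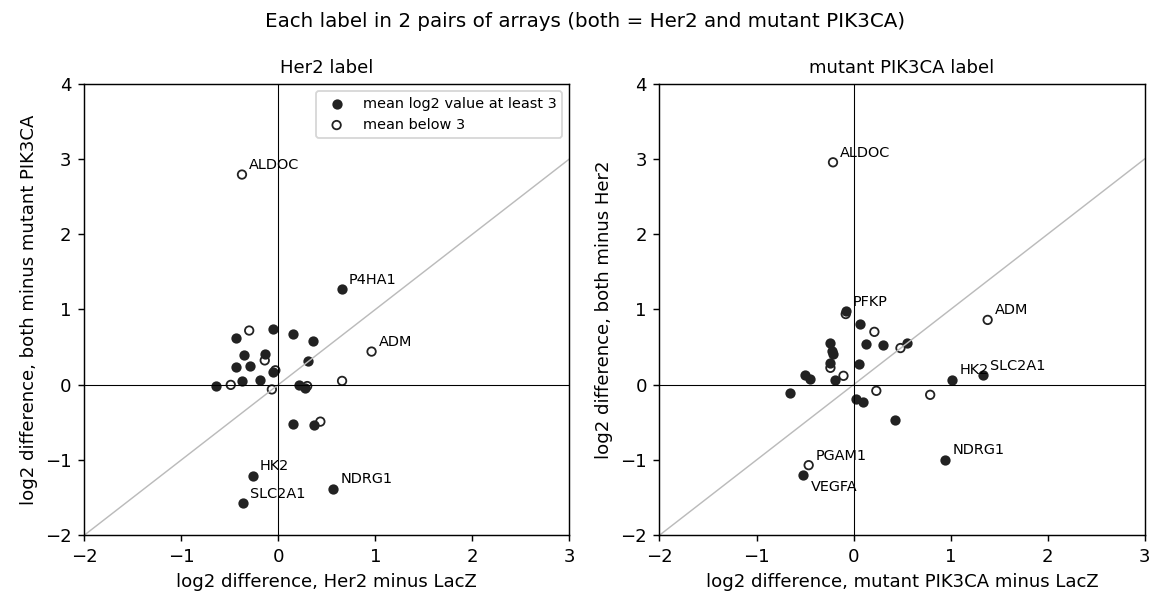
Log2 difference of each measured member for the Her2 label (left) and the mutant PIK3CA label (right), in the pair without the other introduced gene (x axis) and the pair with it (y axis). Filled points are counted genes, open points have a mean below 3, and the grey line marks equal differences; ALDOC lies far above the line in both panels and NDRG1 far below it.

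Departure from additivity is the value with both labels minus both single values plus LacZ, in log2 units. It was 2-fold or more for PFKP (1.06) above and for NDRG1 (-1.94) and SLC2A1 (-1.21) below, 3 of 21 counted members, against 15.9% of all counted genes. Below the filter, ALDOC (3.17) and PFKFB4 (1.02) lay above, each with 3 of its 4 readings under the upper quartile. The median over the counted members was 0.26, with 14 of 21 above 0. Over all counted genes it was -0.004, with 49.7% above 0.

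The array labelled with both also differed in markers of cell type. Of 6 measured epithelial markers (of 9 listed), CDH1, EPCAM, LAMB3 and ITGB4 were 2-fold lower than LacZ. The basal keratin KRT5 was near even (-0.13). The keratin KRT14 read 3.43, against 1.47 with LacZ, which is under the LacZ array's upper quartile. Its difference of 1.96 is thus not a measured fold. Their summed linear value was 1539, 2830.1 and 658 on the arrays labelled Her2, mutant PIK3CA and both, against 2172 on the LacZ array. The 8 measured fibroblast markers (of 9) summed to 407, 55.0 and 381, against 45.6. DPT was 2-fold higher than LacZ on the arrays labelled Her2 and both (8.38 and 7.86) and made up much of the sums there. FAP was 2-fold higher on that labelled Her2. LUM and DCN were higher with both labels (6.26 and 5.06), from LacZ readings of 0.78 and 0.73, under the upper quartile. With both labels 4 of the 8 lay below LacZ, namely COL1A1 (-0.46), THY1 (-0.14), PDGFRB (-0.04) and COL1A2 (-0.03). These 4 were under the upper quartile on every array, with COL1A2 at background on all (0.73 to 0.87). The 5 measured immune and endothelial markers (of 6) summed to 16.4, 11.9 and 9.87, against 15.3, with PTPRC at background (0.53 to 0.93). The monocyte marker CD14 made up much of that sum, with 3.24, 2.14 and 1.98 on the arrays labelled Her2, mutant PIK3CA and both, against 2.95 on the LacZ array. What part these markers have in the values of the members was not tested, and in RNA of a whole culture fewer cells of a type and less RNA per cell cannot be told apart.

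The oxygen-sensing machinery itself was described from a list of 10 genes, 7 of them counted. HIF1A, the oxygen-regulated subunit, read 9.19 on the array labelled Her2, 9.52 on that labelled mutant PIK3CA and 9.86 on that labelled with both, against 8.63 on the LacZ array. EPAS1 (HIF-2 alpha), the alternative subunit, read 7.22, 7.43 and 5.91 on those arrays, against 7.01 on the LacZ array. The array labelled with both thus had the highest HIF1A value (1.23 above LacZ) and the lowest EPAS1 value (-1.10). These were the only 2 of 7 genes at least 2-fold different on that array, where 21.4% of all counted genes were. On the arrays labelled Her2 and mutant PIK3CA 0 of 7 were so, beside 5.45% and 8.99% of all counted genes. All 7 lay above LacZ on the array labelled Her2, where 51.0% of all counted genes did, with a median of 0.27. No test was made of this. The HIF1A protein is controlled mainly by its removal, which an array does not read.

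Of 36 other hypoxia targets, 23 were counted. On the array labelled with both, 6 were 2-fold higher and 1 lower than LacZ, beside 11.6% and 9.75% of all counted genes. LOXL2, a matrix crosslinking enzyme, differed by 2.09, TMEM45A by 1.49 and EDN1 (endothelin) by 1.48, and BHLHE41, a transcriptional repressor, by -1.73. On the array labelled mutant PIK3CA 3 were higher and 1 lower, beside 5.26% and 3.73% of all counted genes, with EDN1 at 3.70 and BHLHE41 at -1.28. EDN1 read 6.04 there, against 2.34 with LacZ, which is under the LacZ array's upper quartile, so that its difference from the quartile was 3.54, at least 11.6-fold. On the array labelled Her2 3 were higher and 1 lower, beside 2.99% and 2.46%, with IGFBP3, a binding protein of insulin-like growth factors, at 1.20 and ANGPTL4, a regulator of lipid uptake, at -1.00. The medians were 0.01 on the array labelled Her2, -0.04 on that labelled mutant PIK3CA and -0.07 on that labelled with both, all near 0. EDN1 shared with SLC2A1 and HK2 its highest value on the array labelled mutant PIK3CA, and the array labelled with both differed from it by -2.21. CXCR4, a chemokine receptor, was 2.19 higher with both labels than with mutant PIK3CA alone. Against the array labelled Her2, EDN1 was higher on the array labelled with both (1.58) and IGFBP3 lower (-1.80). EDN1, IGFBP3 and BHLHE41 reached the filter only through their highest array, with means of 2.80, 2.78 and 2.95 without it, and the lower readings behind some of these differences were under the upper quartile. Counted from the quartile, the array labelled with both differed from LacZ by 1.34 for TMEM45A, 1.32 for EDN1 and -1.43 for BHLHE41, and from the array labelled Her2 by 1.26 for EDN1 and -1.51 for IGFBP3. TMEM45A was among the 3 called higher on the array labelled mutant PIK3CA (1.00). Counted from the LacZ array's quartile it differed there by 0.86, short of 2-fold.

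Of 22 other glycolysis genes 11 were counted. With both labels PGM2, a phosphoglucomutase family member, was 2-fold higher than LacZ (1.25) and PCK2, the mitochondrial enzyme that makes phosphoenolpyruvate, 2-fold lower (-1.39), beside 21.4% of all counted genes. On the arrays labelled Her2 and mutant PIK3CA 0 of 11 were 2-fold different, beside 5.45% and 8.99%. LDHB, the other lactate dehydrogenase subunit, read 4.65 on the array labelled with both, against 3.40 on that labelled mutant PIK3CA. PCK2 read 2.95 with both labels, a difference of -2.02 from mutant PIK3CA and of -1.04 from Her2. GAPDH, the dehydrogenase between the aldolases and PGK1, differed by at most 0.20 between arrays.

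By their list medians, routes that branch from glycolysis were near or below LacZ. In the pentose phosphate pathway, 4 of 5 counted genes (of 7) were below LacZ on the array labelled Her2 and all 5 on those labelled mutant PIK3CA and both, with medians of -0.52, -0.35 and -0.46. Over all counted genes 48.9%, 48.5% and 48.9% were below LacZ on the arrays labelled Her2, mutant PIK3CA and both. The lactonase PGLS was 2-fold lower on the arrays labelled Her2 (-1.15) and both (-1.17), where 2.46% and 9.75% of all counted genes were. Of 21 genes of pyruvate dehydrogenase and the TCA cycle 17 were counted. CS (citrate synthase) was 2-fold lower with both labels (-1.16), where 9.75% of all counted genes were. SUCLA2, a subunit of succinyl-CoA synthetase, was 2-fold higher with Her2 (1.04), where 2.99% of all counted genes were. The list medians were -0.13, 0.03 and 0.05 on the arrays labelled Her2, mutant PIK3CA and both. On those arrays 5, 10 and 11 of the 17 lay above LacZ. The MondoA transcription factors report cellular glucose, and ARRDC4 and TXNIP are their targets. Of the 4 counted genes of that list (of 5), all were below LacZ on the array labelled Her2 (median -0.61), 3 on that labelled mutant PIK3CA (-0.45) and all on that labelled with both (-0.96), with ARRDC4, which limits glucose uptake, at -1.68 and MLXIP (MondoA) at -1.06 with both. Of the 4, 2 were thus 2-fold lower with both labels, beside 9.75% of all counted genes. ARRDC4 read 3.70 on the array labelled with both, against 5.51 on that labelled mutant PIK3CA and 4.97 on that labelled Her2. Each of these lists is short, and its median describes these arrays only.

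**Figure D4:**
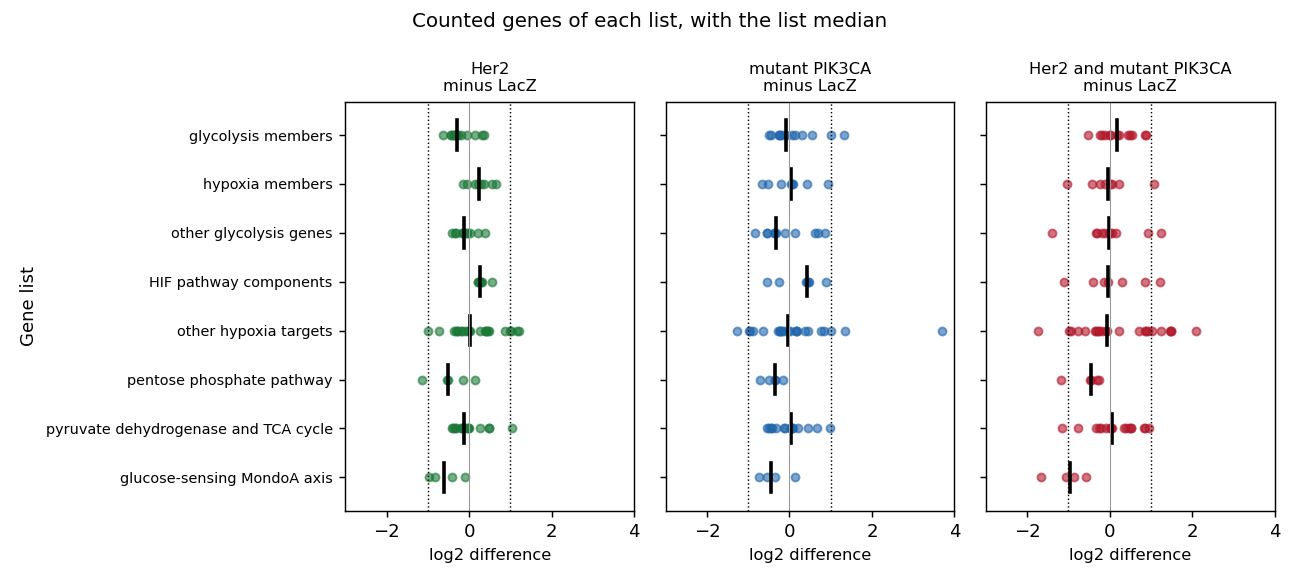
Log2 difference from the LacZ array (x axis) of counted genes (points) in 8 gene lists (rows), with the list median as a black bar, for the arrays labelled Her2, mutant PIK3CA, and Her2 and mutant PIK3CA (panels). Dotted lines mark 2-fold; most points lie between them, EDN1 lies at 3.70 in the middle panel, and the MondoA list has the lowest median in the right panel (-0.96).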

How the data were processed

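RNA of 4 MCF10A samples was measured on 1 array each. The values the authors deposited are on a log2 scale, 1 per probe set; per the submitters' processing notes they come from RMA (package oligo). Versions and filters: not given in the sources used here. No header states the log base, which was taken from what RMA gives and from the values' range. RMA normalizes between arrays, so a shift common to most genes would not show.

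Probe sets with exactly 1 symbol in the platform annotation were used (23871 of 53617, with 1842 holding several and 27904 unnamed here). RefSeq (GRCh38.p14) replaced 90 outdated symbols, by gene identifier. Where a gene had several probe sets, the one with the highest mean was kept. Small RNAs, ERBB2 and PIK3CA were left out. Counted genes had a mean of at least 3 over the 4 arrays, since a filter on any single array admits more genes high on that array alone; the mean admits some too, which are named with their values. Differences of at least 1 log2 unit (2-fold) were counted in 5 comparisons. No test was made: 1 array per group gives no spread between replicates, and an additive fit of both labels, which would leave 1 residual degree of freedom, was not run. The counting was checked on simulated data. Alternatives used limma 3.58.1 in R 4.3.3 (quantile, or cyclic loess with 3 iterations); all else was done in Python 3.11.15 with pandas 2.3.3.

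The members, lists and settings were chosen with earlier results of these data known. All members could be named; of other lists, the 3 highest and 3 lowest 2-fold differences with both labels against LacZ, and the highest and lowest in other comparisons. TXNIP, GAPDH, G6PC3, CITED2, STC2, HILPDA, SUCLG1, marker genes and TMEM45A with mutant PIK3CA were named outside that rule, after their values were seen. A filter on the mean of the 3 lower arrays was added then.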

Additional observations from a re-analysis of the deposited data

Results flagged for a closer look

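For 4 of 31 measured members (12.9%) and 13 of 67 counted genes of the other lists (19.4%), the difference made by a label went one way without the other introduced gene and the opposite way with it, and the gap between both differences was at least 2-fold. Among counted genes alone it held for 2 of 21 members (9.52%), against 13.7% of all counted genes. With 1 array per group the gap was not tested. ALDOC had a gap of 3.17, with -0.37 without and 2.79 with the other gene for the Her2 label, and -0.21 and 2.95 for mutant PIK3CA. Its 3 readings without both labels are under the upper quartile of all probe sets, so that -0.37 and -0.21 carry no direction. PFKP had a gap of 1.06, with -0.44 without and 0.62 with the other gene for Her2, and -0.08 and 0.98 for mutant PIK3CA. PFKFB4 had a gap of 1.02 (-0.30 and 0.72 for Her2, -0.08 and 0.94 for mutant PIK3CA). Its readings without both labels are also under the upper quartile, so that -0.30 and -0.08 carry no direction. NDRG1 had a gap of -1.94 (0.56 and -1.38 for Her2, 0.95 and -1.00 for mutant PIK3CA). Of the oxygen-sensing genes, EPAS1 had a gap of -1.73 and CITED2 of -1.16. Of the other hypoxia targets, CXCR4 (2.39), HILPDA (2.06) and ANGPTL4 (1.69) had gaps above 0, and IGFBP3 (-1.95) and STC2 (-1.19) below it. Of the other glycolysis genes, LDHB (1.32) and G6PC3 (1.28) lay above 0 and PCK2 (-1.67) below it. SUCLG1 (1.00), SUCLA2 (-1.69) and ARRDC4 (-1.40) were the others, and for PCK2 and ARRDC4 the direction turned for the mutant PIK3CA label alone. Each gap is a single value built from the same 4 arrays, so the entries for the Her2 and the mutant PIK3CA label are not independent. ALDOC and PFKFB4 had means below 3.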

How the results depend on the processing

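Counts and medians of the members in the 5 comparisons were recomputed under 9 alternatives, 1 of them added after seeing the data. Of 130 recomputed values, 110 stayed within 1.5 times a count or 0.2 log2 units of a median, and no median moved by more. All 5 medians were smaller than 0.2 in size, so a change of sign could also stay within it. The median with mutant PIK3CA against LacZ went from 0.03 to -0.13 under a mean of at least 5. That with both against LacZ went from 0.02 to -0.11 there and to -0.06 after centring on the array medians. A percentage in parentheses below is the share over all genes under the same setting. With no filter, 31 members gave 3 higher with both labels against LacZ (6.5%) and 2 higher with both against mutant PIK3CA (5.28%). With both against Her2 they gave 1 higher and 2 lower (4.42% and 2.63%). A mean of at least 5 left 10 members. Of these, 1 was higher with mutant PIK3CA against LacZ (5.08%) and 1 lower with both against mutant PIK3CA (7.84%). A value of at least 5 on at least 1 array left 13 members, with 1 higher with mutant PIK3CA against LacZ (7.1%). A mean of at least 3 over the 3 lower arrays, the added one, left 20 members (HK2 dropped out). Of these, 1 was higher with mutant PIK3CA against LacZ (4.65%) and 2 were lower with both against mutant PIK3CA (7.08%). Quantile and cyclic loess normalization each gave 2 lower with both against Her2 (5.9% and 5.3%). Centring on the array medians also gave 2 there (6.1%). It gave 1 higher with mutant PIK3CA against LacZ (4.97%, HK2 at 0.99) and 0 higher with both against LacZ (10.3%, P4HA1 at 0.98). At 1.5-fold there were 1 higher and 1 lower with Her2 against LacZ (11.6% and 10.9%) and 1 lower with mutant PIK3CA against LacZ (13.4%). With both labels 3 were higher against LacZ (23.1%) and 4 higher against mutant PIK3CA (18.2%). Against Her2, 2 were higher and 2 lower with both (15.9% and 14.7%). Without the filter the counts moved through ALDOC, ADM and PGAM1. No difference of at least 1 of a counted member changed direction under the 3 other normalizations. Averaging all probe sets could not alter a member, since each has 1, so its values among the 110 were the same by design. No paired analysis was possible because each group has 1 array. Low values limit ALDOC, ADM, PGAM1, PFKFB4 and EGLN3.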

Other observations

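Some genes of these lists have probe sets that are annotated to several genes or are a second probe set, and their values stand here alone, named after they were seen. The probe set shared by BNIP3, a receptor for removal of mitochondria, and the pseudogene BNIP3P1 read 7.00 on the array labelled Her2, 7.30 on that labelled mutant PIK3CA and 7.97 on that labelled with both, against 7.43 on the LacZ array. It was highest where BNIP3L was lowest. A second HIF1A probe set, near background, read 2.33, 1.52 and 2.07 on the arrays labelled Her2, mutant PIK3CA and both, against 1.05 on the LacZ array. It was above LacZ on all 3 arrays, as the main HIF1A probe set was, but with its highest value on the array labelled Her2. The probe set of AK4, a mitochondrial adenylate kinase and hypoxia target, with AK4P3 read 2.80, 4.30 and 4.11 on those arrays, against 3.96 on the LacZ array.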
